A study of Mus musculus with 8 samples.

Results

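The genes described here are 10 enzymes of eicosanoid synthesis, namely the phospholipases A2 Pla2g3, Pla2g4a, Pla2g4e, Pla2g5 and Pla2g6, the cyclooxygenases Ptgs1 and Ptgs2, the prostaglandin synthases Ptgds and Ptges, and the lipoxygenase Alox5. They were taken by symbol through the RefSeq accession that the array files give for each probe, which found all 10 genes with 13 probes, of 20660 named genes and 55681 probes on the array. Phospholipases A2 cut a fatty acid, often arachidonic acid, from membrane phospholipids. Cyclooxygenases turn free arachidonic acid into prostaglandin H2, from which terminal synthases make prostaglandin D2 (Ptgds) or E2 (Ptges), while Alox5 starts the path to leukotrienes. In brain, Ptgs2 is known as an enzyme of excitatory neurons that follows their activity, and Ptgds as a product of meninges, choroid plexus and oligodendrocytes.

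Hippocampal total RNA of adult male Muta Mouse, a transgenic mutation-reporter strain carried by both groups, was compared between 4 control mice, given olive oil alone by gavage, and 4 mice given benzo[a]pyrene (BaP) in olive oil at 70 mg per kg body weight per day. Dosing lasted 3 days and tissue was taken 24 h after the last dose. Each mouse had 1 array, with its RNA in Cy5 and a universal mouse reference RNA in Cy3 and without dye swaps, and all values below are log2 ratios of Cy5 over Cy3 unless another scale is named. For 4 of the 8 arrays (Control 3, Control 4, BaP 3 and BaP 4) the sample title and the source name give opposite groups; titles were used, and these 4 arrays are also those of the second of 2 rows on the 1 slide.

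All 12 markers of hippocampal neurons were above background, among them Neurod6 with a mean log2 ratio of 6.22 and C1ql3 with 5.99 in control mice. Median Cy5 intensity of the arrays ran from 108 to 174 over a background of 67 to 71, and Control 1 had 1483 outlier spots against at most 371 elsewhere. Genes of tissue that borders the hippocampus differed widely between mice of the same group: the mean log2 ratio of 16 choroid plexus genes ran from 1.48 to 3.40 in control and from 1.02 to 4.60 in BaP mice, and that of 12 meningeal fibroblast genes from -1.14 to 0.31 and from -1.14 to 0.22. The mean log2 ratio of 6 red cell genes was lower in all BaP mice, at 3.81 to 4.01 in control and 2.89 to 3.20 in BaP mice. Of the 6 genes, 5 had groups that did not overlap, against 5.06% of all tested probes, while Slc4a1 overlapped. Hbb-bs and Alas2 were called. The 4 BaP mice by title were apart from the 4 controls in Hbb-bs, a beta-globin and the probe of lowest p in this comparison (2.95 to 3.54 against 5.05 to 5.46). They were also apart in Cldn5, an endothelial claudin (4.69 to 4.87 against 5.25 to 5.39). Of 11 endothelial genes, 7 were higher in BaP mice and 4, Cldn5 among them, lower by their brightest probe. Slc2a1 was higher in all BaP mice (-1.27 to -0.94 against -1.95 to -1.36). Hbb-bs and Cldn5 were picked from the comparison by title, so their separation on these arrays is no test of the labels. Measures from outside these arrays were not brought to the labels. Over all tested probes 3 were called by title and 0 by source name. In whole tissue, fewer cells of a type and less RNA per cell cannot be told apart.

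Of the 13 member probes, 12 were tested because their Cy5 signal cleared background on 4 or more arrays, and they cover all 10 genes. None of the 12 changed at an adjusted p of 0.05 or less and a fold change of at least 1.5 (limma, Benjamini-Hochberg over 32599 probes), where 0.0092% of all tested probes did. The lowest adjusted p of a member probe was 0.536. At an unadjusted p of 0.05 or less stood 1 of 12, against 8.76% of all tested probes, and 2 of 12 differed by 1.5-fold or more, against 1.02%. Both probes past 1.5-fold, Pla2g5 and Ptgs1, had standard errors of 0.599 and 0.496. The count past 1.5-fold was 5 with the scanner's processed signals, where Pla2g3 was at -0.90, Pla2g4e at 0.82 and the dimmer Pla2g5 probe at 0.955. It was 1 without BaP 3, without BaP 4 and within the first slide row. It was also 1 with the Cy5 channel alone, whether quantile-normalised or scaled to the array median. The 1.02% belongs to the fit above, and the share of all tested probes under these other settings was not counted. No member probe separated the groups without overlap, where 5.06% of all tested probes did. Of the 12 differences, 8 were above and 4 below 0, with a median of 0.10 against -0.0043 over all tested probes. Of the 12, the dimmer Pla2g5 probe, was above background in BaP mice only; without it 7 of 11 differences were above 0, with a median of 0.05.

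**Figure D1:**
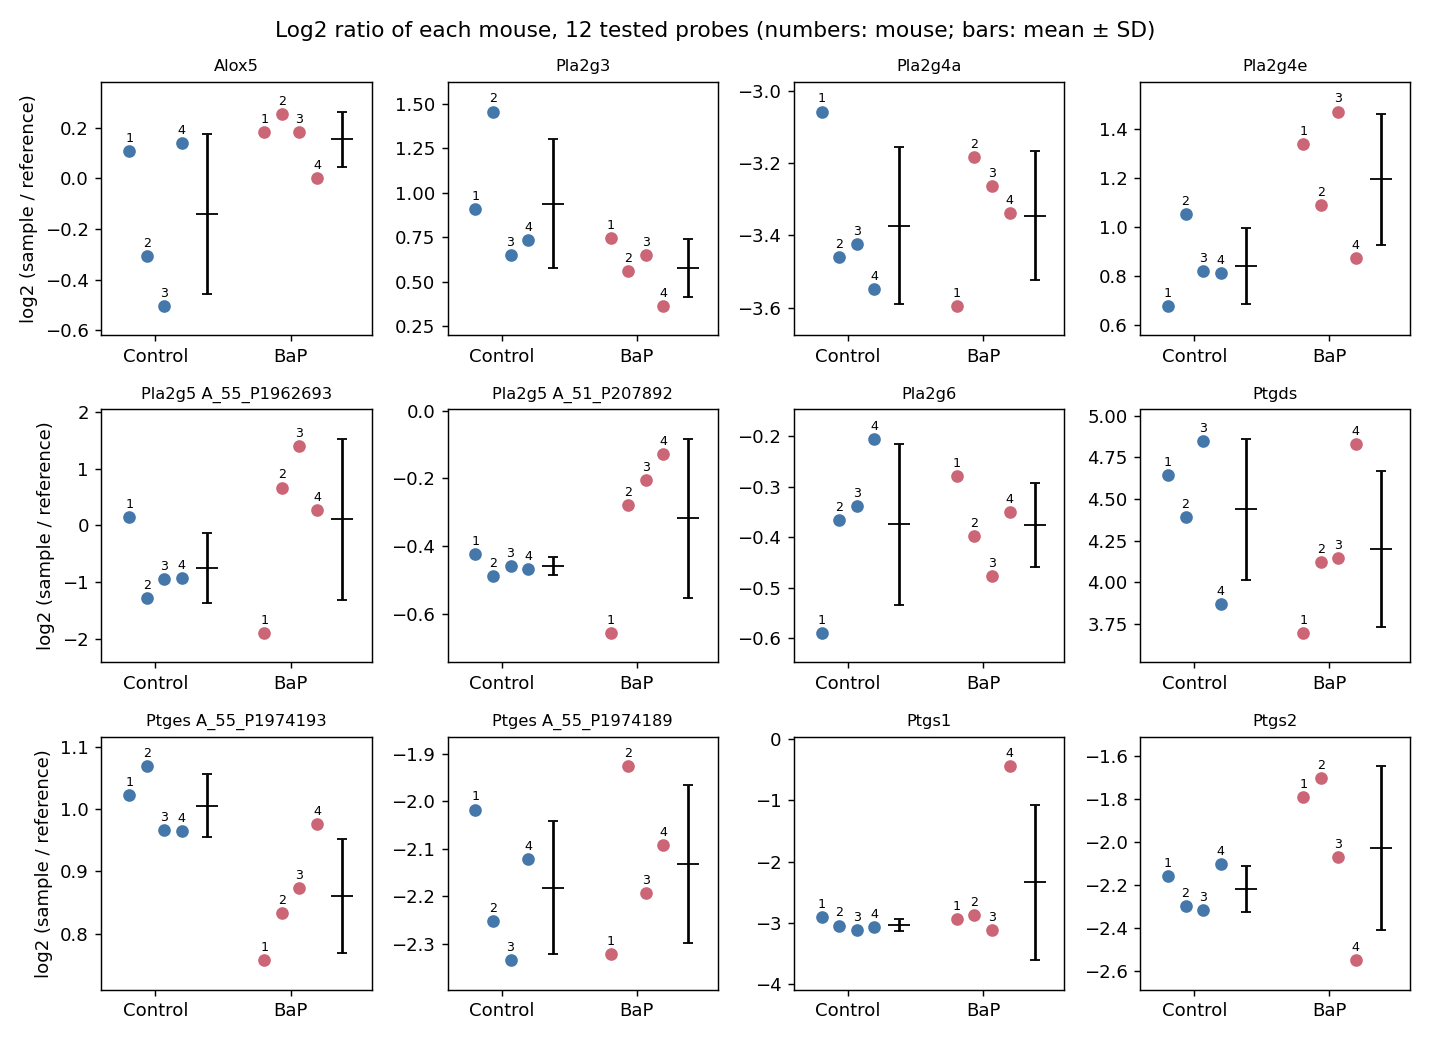
Log2 ratio of hippocampal Cy5 over reference Cy3 (y axis) for each of the 4 control and 4 BaP mice, numbered, with one panel for each of the 12 tested probes and with group means ± SD as bars. The groups overlap in all panels, and for Ptgs1 a single mouse, BaP 4, is away from the rest.

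BaP binds the aryl hydrocarbon receptor (AHR), which acts through a DNA element with the core GCGTG, so the bases before the start of each gene were searched for this core and its reverse complement CACGC. Of 10 members, 9 had an entry in the RefSeq promoter table (build GRCm38.p6), with 11 starts in all. The core lay within 250 bases before 4 of the 11 starts, and within the same distance of 28.2% of 32851 starts in the table. The stretches that hold it are shown because they let a reader see the core beside its context in the members that have one, with the core in capitals and the sequence read along the gene, 5′ to 3′.
Ptgs2, chr1:150099905-150099965, plus strand: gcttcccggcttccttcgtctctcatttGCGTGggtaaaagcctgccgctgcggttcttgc
Ptges, chr2:30903430-30903490, minus strand: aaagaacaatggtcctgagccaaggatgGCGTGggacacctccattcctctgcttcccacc
Pla2g6, chr15:79328417-79328477, minus strand: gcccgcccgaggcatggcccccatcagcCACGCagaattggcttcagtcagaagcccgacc
Pla2g4a, chr1:149961493-149961540, minus strand: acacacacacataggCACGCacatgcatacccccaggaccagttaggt
The core began 98 bases before the start of Ptgs2, 165 before Ptges, 78 before Pla2g6 and 235 before the first of 2 starts of Pla2g4a. These letters were not in the windows of Ptgs1, Ptgds, Pla2g4e, Pla2g5 and Alox5. A match of 5 letters is a description of the sequence and not a binding site. No member passed the test, with or without a match, so the test says nothing about the core.

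Among the phospholipases A2, the secreted enzyme Pla2g5 varied most between mice. Its brighter probe (A_55_P1962693) read 0.15, -1.27, -0.95 and -0.92 in Control 1 to 4 and -1.90, 0.67, 1.39 and 0.28 in BaP 1 to 4. BaP 1 was the lowest of all mice and the other BaP mice were the 3 highest, so that the BaP group enclosed the control group. The means were -0.75 ± 0.62 (SD, n = 4) and 0.11 ± 1.42 (SD, n = 4), a difference of 0.86 ± 0.60 (SE) with a limma adjusted p of 0.682. Leaving out 1 mouse moved it to between 0.432 (without BaP 3) and 1.53 (without BaP 1, limma adjusted p = 0.252). Within the first slide row, whose labels agree, the difference was -0.05 and within the second row it was 1.77. It was -0.91 with groups taken from the source names.

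The order of the mice in Pla2g5 was near that of the choroid plexus genes, which were highest in BaP 3 and BaP 2 and lowest in BaP 1. Over the 8 mice Pearson's r was 0.90 (exact permutation p = 0.00275) and Spearman's rho 0.881 (exact permutation p = 0.00724), and r was 0.862 without Control 4 and BaP 1, the mice farthest from the median of the choroid plexus mean. With r taken after removal of the group means it was 0.883. Among 96 relations of 12 probes with 8 marker lists the Benjamini-Hochberg adjusted permutation p-values were 0.132 and 0.232, so the relation did not pass the correction. At an unadjusted Pearson permutation p of 0.05 or less stood 11 of the 96. The same probe had an r of 0.815 with the oligodendrocyte list (exact permutation p = 0.0132, adjusted 0.211; rho 0.69, exact permutation p = 0.0694, adjusted 0.502; r 0.646 without BaP 2 and BaP 3) and of 0.673 with the endothelial list (exact permutation p = 0.0675, adjusted 0.463; rho 0.619, exact permutation p = 0.115, adjusted 0.502; r 0.595 without Control 4 and BaP 3), and whether these relations differ was not tested. Control 3 stood off it, with the highest choroid plexus mean of the control mice and a Pla2g5 ratio of -0.95. All 16 choroid plexus genes had a higher mean in BaP than in control mice, with a median difference of 0.87 and none called, and their part in the Pla2g5 difference was not tested.

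The second Pla2g5 probe (A_51_P207892), which carries another transcript accession, was well above background on 0 of 4 control and 4 of 4 BaP arrays. Its log2 ratios were -0.42, -0.49, -0.46 and -0.47 in control and -0.66, -0.28, -0.21 and -0.13 in BaP mice. BaP 1 was the lowest and the 3 other BaP mice the highest. It entered the fit through the BaP arrays alone, so its values are given as a description. The group means differed by 0.14, and leaving out 1 mouse gave 0.0796 (without BaP 4) to 0.256 (without BaP 1). The raw Cy5 intensity was 128, 78.0, 105 and 82.0 in control and 110, 98.0, 120 and 108 in BaP mice, with Control 1 the array of the highest median Cy5 intensity. In the Cy5 channel alone the BaP mice lay above the controls and the means differed by 0.32 after quantile normalisation and by 0.28 after scaling to the array median. The filter went by Cy5 signal, so this separation partly follows from how the probe entered the fit. With the scanner's processed signals the ratios differed by 0.955.

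Pla2g3, also a secreted enzyme, had ratios of 0.91, 1.46, 0.65 and 0.74 in control and 0.74, 0.56, 0.65 and 0.36 in BaP mice. The 2 highest mice were controls and the 3 lowest were BaP mice, with the middle of both groups interleaved. The difference was -0.36 ± 0.17 (SE; limma adjusted p = 0.581), and without Control 2, the highest mouse, it was -0.19. In the Cy5 channel alone the difference was -0.05. The reference spot of BaP 4, the lowest mouse, was at 170 in Cy3 where the 7 other arrays had 88.0 to 100.5. A second Pla2g3 probe was well above background on 1 of 8 arrays and was not tested.

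Pla2g4e, a cytosolic enzyme that also makes N-acyl phosphatidylethanolamines, was the member with the lowest p. It read 0.68, 1.05, 0.82 and 0.81 in control and 1.34, 1.09, 1.47 and 0.87 in BaP mice. Of the 4 BaP mice, 3 lay above all controls and BaP 4 lay between them. The difference was 0.35 ± 0.14 (SE), with an unadjusted limma p of 0.0267, an adjusted p of 0.536 and an exact two-sided permutation p of 0.0571. It was 0.35 within the first and 0.36 within the second slide row, and -0.0044 with groups from the source names. With the red cell list, which separates the groups, r was -0.734 (exact permutation p = 0.0378, adjusted 0.40), rho was -0.857 (exact permutation p = 0.0107, adjusted 0.257), and r was -0.713 without BaP 1 and BaP 2 and -0.424 after removal of the group means. The probe was dim, with Cy5 intensities of 104 to 182, and was well above background on 3 of 4 control arrays.

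Pla2g4a, the calcium-dependent cytosolic enzyme that prefers arachidonic acid, lay far below the reference RNA, with ratios of -3.55 to -3.06 in control and -3.60 to -3.18 in BaP mice. The ranges were nearly the same and the difference was 0.03 ± 0.13 (SE; limma adjusted p = 0.966). Pla2g6, the calcium-independent enzyme, read -0.59 to -0.20 in control and -0.48 to -0.28 in BaP mice. The BaP range lay within the control range and the difference was -0.0010 ± 0.096 (SE; limma adjusted p = 0.998).

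Ptgs1, the constitutive cyclooxygenase, had ratios of -2.91, -3.05, -3.12 and -3.07 in control and -2.94, -2.88, -3.11 and -0.44 in BaP mice. Only BaP 4 stood away from the other 7 mice. The difference of 0.70 ± 0.50 (SE; limma adjusted p = 0.69) fell to 0.06 without that mouse. On that array the Cy3 reference spot was at 1952, where the 7 others had 11870 to 15239, at least 6.08-fold more. The Cy5 spot was at 900.5, within the 617 to 1231 of the others. With the Cy5 channel alone the difference was 0.10 with overlapping groups after quantile normalisation. With each array scaled to its median instead it was 0.27 ± 0.12 (SE; limma adjusted p = 0.454), with log2 values of 2.65 to 2.96 in control and 3.02 to 3.27 in BaP mice that did not overlap. That scaling moved the median of all tested probes to 0.11 and put 4.83% of them higher in all BaP mice. Of the 12 member probes it put 3 there, which were Ptgs1, the dimmer Pla2g5 probe and the dimmer Ptges probe. The dimmer Pla2g5 probe entered the fit through its Cy5 signal on the BaP arrays alone. It therefore cannot be read against that share. The ratio of BaP 4 was high beside a low reference signal, with a hippocampal signal inside the range of the other mice.

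Ptgs2, the inducible cyclooxygenase, read -2.16, -2.30, -2.32 and -2.10 in control and -1.79, -1.70, -2.07 and -2.55 in BaP mice. BaP 1 to 3 were above all controls and BaP 4 was below all of them. The difference was 0.19 ± 0.17 (SE; limma adjusted p = 0.749). It was 0.37 without BaP 4, 0.0827 without BaP 2, 0.48 within the first slide row and -0.10 within the second. The mean of the hippocampal neuron genes was likewise highest in BaP 1 and BaP 2, with r of 0.838 (exact permutation p = 0.00918, adjusted over the relations with marker lists 0.211) and rho of 0.667 (exact permutation p = 0.0831, adjusted 0.502), and r was 0.42 without BaP 1 and BaP 2 and 0.842 after removal of the group means. The activity-induced genes, to which neuronal Ptgs2 is related by background knowledge, had a mean ratio of -0.92 to -0.38 in control and -0.98 to -0.74 in BaP mice, with 7 of 11 lower in BaP mice, 4 higher and none called. Their mean had an r of -0.307 with Ptgs2 (exact permutation p = 0.463, adjusted 0.806), a rho of -0.476 (exact permutation p = 0.243, adjusted 0.707) and an r of -0.294 without Control 1 and BaP 2.

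**Figure D2:**
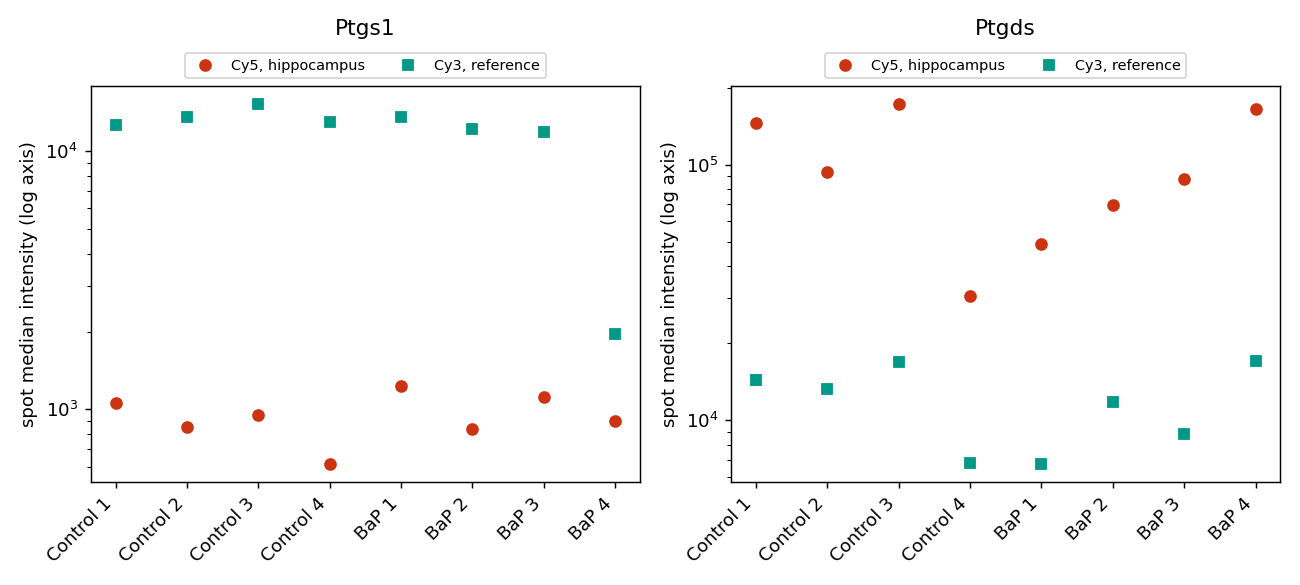
Spot median intensity (log axis) of Ptgs1 and Ptgds in Cy5 (hippocampus) and Cy3 (reference RNA) on each of the 8 arrays. For Ptgs1 only the Cy3 spot of BaP 4 (1952) is away from the rest, and for Ptgds both channels move together over the arrays.

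Ptgds, prostaglandin D2 synthase, had a control mean of 4.44 ± 0.42 (SD, n = 4), or 21.7-fold over the reference. It read 4.64, 4.40, 4.85 and 3.87 in control and 3.69, 4.12, 4.15 and 4.83 in BaP mice. Control 3 and BaP 4 were nearly equal and highest, and Control 4 and BaP 1 were lowest, 1 mouse of each group at each end. The difference was -0.24 ± 0.25 (SE; limma adjusted p = 0.797), -0.61 within the first slide row and 0.13 within the second, and leaving out 1 mouse gave -0.449 (without BaP 4) to -0.0708 (without BaP 1). The raw Cy5 intensity spanned 30556 to 173290 over the 8 mice, a 5.67-fold range. The Cy3 reference spot, the same RNA on every array, spanned 6766 to 17021, a 2.52-fold range, and was highest in BaP 4 and Control 3 and lowest in BaP 1 and Control 4. The cause of the Cy3 spread was not tested.

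The mice high in Ptgds were those high in meningeal fibroblast genes. Over the 8 mice Pearson's r was 0.907 (exact permutation p = 0.00184) and Spearman's rho 0.905 (exact permutation p = 0.00456), with r of 0.796 without Control 4 and BaP 1 and 0.95 after removal of the group means. The adjusted permutation p-values over the 96 relations were 0.132 and 0.232, and none of the 96 passed. With the choroid plexus list r was 0.466 (exact permutation p = 0.236, adjusted 0.625; rho 0.405, exact permutation p = 0.327, adjusted 0.766) and -0.365 without Control 4 and BaP 1, and with the oligodendrocyte list it was -0.145 (exact permutation p = 0.723, adjusted 0.956; rho -0.238, exact permutation p = 0.582, adjusted 0.86) and 0.21 without BaP 2 and BaP 3. The meningeal list itself did not separate the groups, with a difference in its mean of 0.0011 (exact two-sided permutation p = 0.971). Its part in the spread of Ptgds was not tested.

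**Figure D3:**
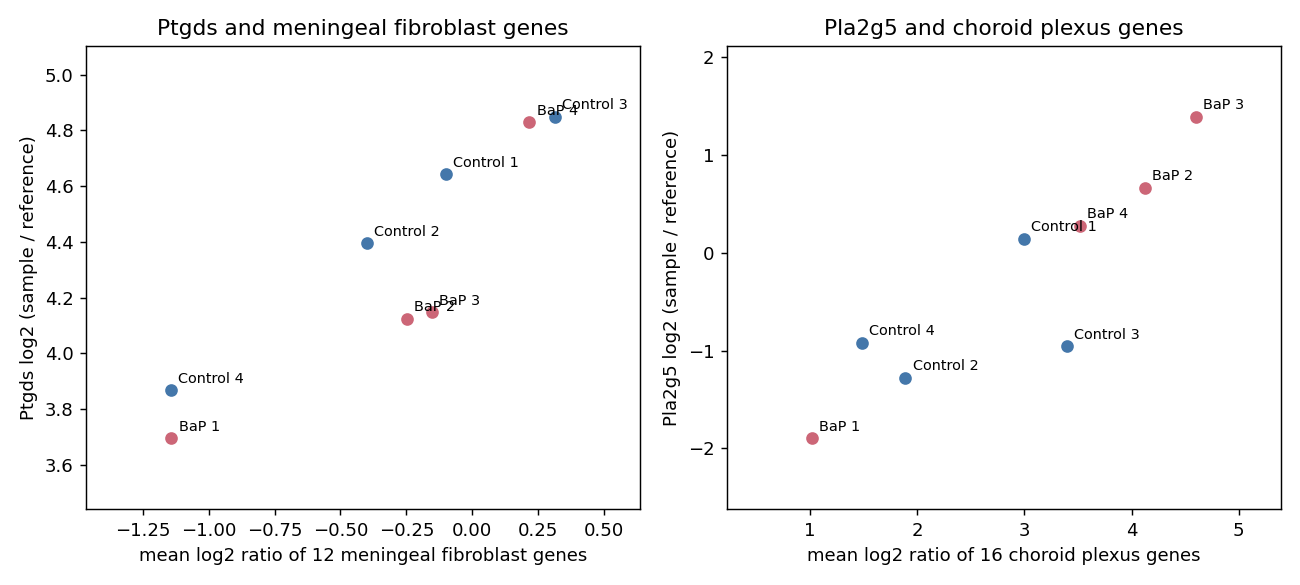
Left, Ptgds log2 ratio against the mean log2 ratio of 12 meningeal fibroblast genes; right, Pla2g5 (A_55_P1962693) against that of 16 choroid plexus genes, 1 point a mouse with control in blue and BaP in red. Both pairs rise together over the 8 mice (r = 0.907 and 0.90), with Control 3 off the line at right.

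Ptges, prostaglandin E synthase, had 2 probes on 1 transcript accession, whose ratios to the reference differed in sign. The brighter (A_55_P1974193) read 1.02, 1.07, 0.97 and 0.96 in control and 0.76, 0.83, 0.87 and 0.98 in BaP mice. BaP 1 to 3 were below all controls and BaP 4 was within them. The difference was -0.15 ± 0.078 (SE; limma adjusted p = 0.613), the smallest SE among the members. This probe had an r of -0.856 with the hippocampal neuron list (exact permutation p = 0.00796, adjusted 0.211), a rho of -0.643 (exact permutation p = 0.0962, adjusted 0.502), and an r of -0.592 without BaP 1 and BaP 2 and of -0.745 after removal of the group means. With the red cell list r was 0.787 (exact permutation p = 0.0258, adjusted 0.354), rho was 0.714 (exact permutation p = 0.0576, adjusted 0.502), and r was 0.584 without BaP 1 and BaP 2 and 0.373 after removal of the group means. The dimmer (A_55_P1974189) had ratios of -2.33 to -2.02 in control and -2.32 to -1.93 in BaP mice, and a difference of 0.05 ± 0.11 (SE; limma adjusted p = 0.916).

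Alox5, the 5-lipoxygenase, read 0.11, -0.30, -0.50 and 0.14 in control and 0.18, 0.26, 0.18 and 0.0008 in BaP mice. BaP 1 to 3 lay above all controls, while BaP 4 lay between them. The difference was 0.30 ± 0.15 (SE; limma adjusted p = 0.588), with 0.32 within the first and 0.27 within the second slide row and 0.02 with groups from the source names. Without Control 3, the lowest mouse, it was 0.175.

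**Figure D4:**
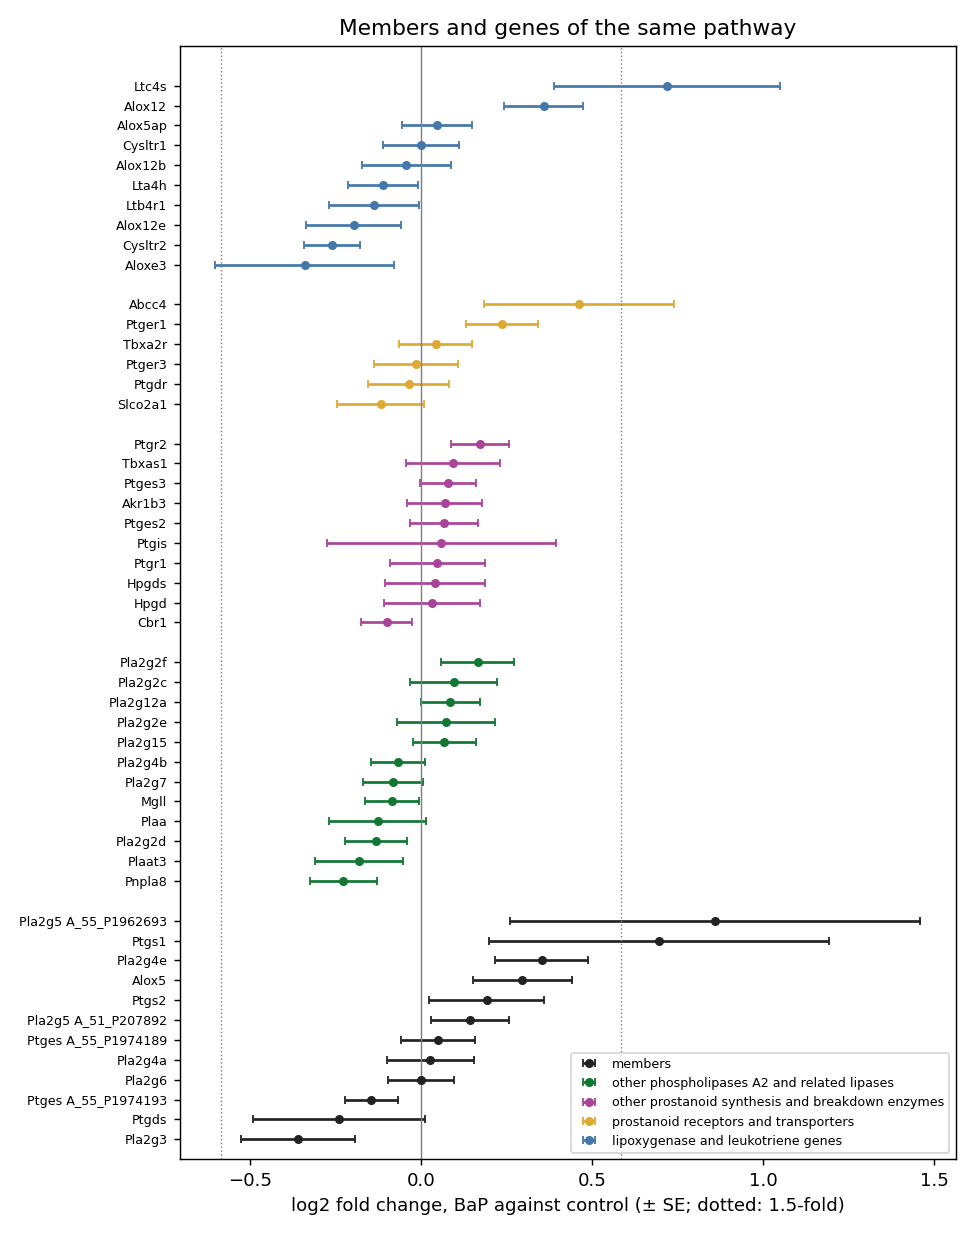
Log2 fold change of BaP against control (x axis, ± SE) for the 12 member probes and, for 4 lists of genes of the same pathways, the brightest tested probe of each gene. Dotted lines mark 1.5-fold; past them lie Pla2g5 (A_55_P1962693), Ptgs1 and Ltc4s, all with wide errors.

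In the rest of the pathway no gene passed the test. Not above background on any array were Pla2g1b, Pla2g4f, Pla2g10 and Pla2g12b among the phospholipases, the prostanoid receptors Ptger2, Ptgdr2 and Ptgir, and Alox8, Alox15 and Ltb4r2 of the lipoxygenase and leukotriene genes. Of 12 tested genes among other phospholipases A2 and related lipases, 5 were higher and 7 lower (median -0.07), with Pnpla8, a patatin-like phospholipase, at -0.23 and Plaat3 at -0.18. Of 10 other enzymes of prostanoid synthesis and breakdown, 9 were higher and 1 lower by their brightest probe (median 0.06), where 15894 of all 32599 tested probes were higher. Among the further tested probes of these enzymes, those of Ptges3 ran from -0.12 to 0.10 and that of Hpgd was at -0.012. Those of Akr1b3 and Ptgr2 were higher. Ptgr2, a reductase that inactivates prostaglandins, differed by 0.17 ± 0.086 (SE; limma adjusted p = 0.592) on its brightest probe with overlapping groups, and by 0.38 (limma adjusted p = 0.515) on another probe (A_52_P229783), where the 4 BaP mice (0.21 to 0.88) were above the 4 controls (0.00055 to 0.17). Cbr1, a carbonyl reductase, differed by -0.10.

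Of 6 tested prostanoid receptors and transporters, 3 were higher and 3 lower (median 0.01). Abcc4, an exporter of prostaglandins, differed by 0.46 and Ptger1, a prostaglandin E2 receptor, by 0.24, and neither was called. Among 10 tested lipoxygenase and leukotriene genes, 4 were higher and 6 lower (median -0.08). Ltc4s, leukotriene C4 synthase, differed by 0.72 ± 0.33 (SE; limma adjusted p = 0.58) with overlapping groups. Groups did not overlap for Alox12, the 12-lipoxygenase, which read 0.15 to 0.20 in control and 0.35 to 0.88 in BaP mice (limma adjusted p = 0.498), nor for the leukotriene receptor Cysltr2. The Alox12 probe was well above background on 2 of 4 control and 4 of 4 BaP arrays. Another Alox12 probe was not above background on any array and was not tested. Cysltr2 was well above background on 4 of 4 control and 0 of 4 BaP arrays, and read -0.51 to -0.24 in control and -0.70 to -0.62 in BaP mice; it entered the fit through the control arrays alone, so this is a description. Among the genes above background in both groups, 1 of 37 in the 4 lists did not overlap by its brightest probe, beside 5.06% of all probes.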

How the data were processed

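Hippocampal RNA of 8 mice was hybridised to Agilent 2-colour arrays against a common reference. The authors deposited the scanner output of each array, extracted with Agilent Feature Extraction per the labels, with the intensity of each spot in Cy5 and Cy3. Their log2 ratios, also deposited, served as an alternative. Spot medians were background-corrected (normexp, offset 50) with limma 3.58.1 in R 4.3.3, control and outlier spots were removed, ratios were loess-normalised within each array, and repeated spots were averaged by probe. A probe entered the fit where its Cy5 signal cleared background on 4 or more of the 8 arrays. These were fitted with lmFit and eBayes and p-values were adjusted by Benjamini-Hochberg over all 32599. The deposited log2 ratios correlated with these at 0.998 or more on each array. RefSeq accessions named 27235 of 55681 probes through a table of GRCm38.p6. In pathway lists the brightest tested probe stood for a gene; genes were named where groups did not overlap or where they had the 2 largest differences of a list. Samples of a group are separate mice. The number of arrays limits the precision, and 4 against 4 mice allow no exact two-sided permutation p below 0.0286. The members, lists and tests were chosen with earlier results of these data known. The relations with marker lists were added after seeing the data. The fit was tested on simulated data.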

Additional observations from a re-analysis of the deposited data

Results flagged for a closer look

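In groups of 4 mice, the gap of the highest or lowest mouse to its neighbour was set against the range of the group (Dixon's test at 95%) in 62 groups, of which chance would give about 3.1. It picked out 3. The first is Ptgs1 in the BaP mice, where the gap of BaP 4 took 0.913 of the range; the reference spot of that array was low and its hippocampal spot was not high. The second is the mean of the other prostanoid enzymes in the control mice, where Control 4 was lowest with a gap of 0.882 of the range. The third is Ptgr2 (A_51_P146655) in the BaP mice, where BaP 1 was lowest with 0.846.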

How the results depend on the processing

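No member probe was called under any of 24 alternative settings, which are 23 distinct fits because slide row 1 holds the 4 mice with agreeing labels. Of these, 1 (Cy5 alone with each array scaled to its median) was chosen after seeing the data, and the lowest adjusted p of a member under them was 0.239 (limma). Over all tested probes 3 were called, all lower in BaP mice, against 5 without a filter on dim probes, 6 with the Cy5 channel alone under either scaling, and 0 with the scanner's processed signals, within slide row 1 (the 4 mice with agreeing labels), within slide row 2 and with groups by source name; leaving out 1 mouse gave 1 to 3. The numbers do not pair the mice (correlations of same-numbered deviations of -0.354 to 0.0313), and with the replicate block the count was 3 and no member was called. The sign of the difference held under all alternatives run for Alox5 (0.0216 to 0.492) and Pla2g3 (-0.897 to -0.0029) and turned under at least 1 for the 10 other probes, for Ptges (A_55_P1974193) only under 2 scalings that raised the median of all tested probes. Without background correction Pla2g4a was at -0.0033 and Pla2g6 at 0.0041. With median centring in place of loess, which moved the median of all tested probes to 0.17, Pla2g6 was at 0.27, Ptgds at 0.0601 and Ptges (A_55_P1974193) at 0.15. With median-scaled Cy5 alone, where that median was 0.11, Pla2g6 was at 0.125 and Ptges (A_55_P1974193) at 0.0155. In the authors' log2 ratios Pla2g4a was at -0.0283 and Ptges (A_55_P1974189) at -0.012. Within slide row 1, and so in the 4 mice with agreeing labels, Pla2g4a was at -0.13, Pla2g5 at -0.0508 (A_55_P1962693) and -0.0116 (A_51_P207892) and Pla2g6 at 0.14, and within slide row 2 Ptgds was at 0.13 and Ptgs2 at -0.10. With groups by source name Pla2g4a was at -0.16, Pla2g4e at -0.0044, Pla2g5 at -0.91 and -0.15, Pla2g6 at 0.14, Ptges (A_55_P1974189) at -0.0377 and Ptgs1 at -0.63. Leaving out 1 mouse gave -0.0315 to 0.132 for Pla2g4a, -0.0729 to 0.0557 for Pla2g6 and -0.0198 to 0.112 for Ptges (A_55_P1974189). The cause was not tested. The filter on all 8 arrays left out Pla2g4e and the dim Pla2g5 probe.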
